A study of Mus musculus with 82 samples.

Results

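The data described are those of 10 genes of the NRF2 pathway, a regulator pair and its antioxidant targets, namely Nfe2l2, Keap1, Gclc, Gclm, Gsr, Txnrd1, Srxn1, Nqo1, Hmox1 and Abcc4. Every probe set annotated to 1 of these single symbols was taken, which gave 20 probe sets out of 45037 on the array and 10 genes out of the 18193 it represents. No filter on low values was applied, so all 20 were tested.

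RNA of mouse embryonic fibroblasts (MEFs) and of primary hepatocytes from mice was measured on an Affymetrix whole-genome array, and a value is the authors' log2 intensity per probe set. The MEF arrays hold 4 technical replicates each of AMPK alpha1-/- alpha2-/- cells (dKO) with 991, AICAR or vehicle and of control cells (WT) with AICAR or vehicle, and 3 of WT cells with 991. For hepatocytes the labels number 2 biological replicates per genotype, called preparations here, each with 991, AICAR and vehicle and 5 technical replicates, except 9 arrays in all for dKO with vehicle. Both genotypes are on C57BL/6, the dKO cells lack both catalytic subunits of AMPK, and vehicle was DMSO. Cells were treated for 4 h, MEFs with 10 µM 991 or 2 mM AICAR and hepatocytes with 3 µM 991 or 300 µM AICAR. The hepatocytes had been plated on collagen and kept overnight in medium with dexamethasone. 991 binds and activates AMPK, the cell's energy-sensing kinase, and AICAR is converted inside cells to an AMP mimetic that activates it too. Setting treated against vehicle cells in both genotypes asks which changes need AMPK. The labels give no number of embryos, cell lines or clones behind the MEFs, so p-values in MEFs measure only the spread between technical replicates.

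The median of an array was 6.158 to 6.246 for MEFs and 5.877 to 6.078 for hepatocytes. In hepatocytes Prkaa1, the AMPK alpha1 gene, averaged 4.52 in dKO and 5.63 in WT with vehicle, a difference of -1.11 ± 0.09 (SE) with a limma adjusted p = 0.173. In MEFs it averaged 8.26 in dKO and 8.35 in WT, a difference of -0.09 ± 0.10 (adjusted p = 0.540). For Prkaa2, the alpha2 gene, the difference was -0.32 ± 0.08 in MEFs (adjusted p = 0.00134) and -0.10 ± 0.08 in hepatocytes (adjusted p = 0.935). A probe set that reads a part of the transcript left in the knockout would not show the deletion, and where these read it is not stated in the labels. Of 8 hepatocyte markers measured, 8 lay above the array median in hepatocytes and 2 in MEFs. The summed linear level of 8 fibroblast markers was 19942 to 20302 in dKO and 40861 to 41904 in WT MEFs with vehicle, and 8 of 8 were lower in dKO. Of all probe sets 18.6% were called lower in dKO in that comparison. The summed level of 9 Kupffer cell and macrophage markers was 2864 to 3821 in dKO and 4624 to 7039 in WT hepatocytes with vehicle, and 9 of 9 of these markers lay above the array median in hepatocytes. In such bulk samples, fewer cells of a type and less RNA per cell cannot be told apart.

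NRF2, the product of Nfe2l2, is a transcription factor that switches on genes against oxidative and electrophilic stress. KEAP1 binds it in the cytoplasm and hands it to the CUL3 ubiquitin ligase for degradation, and oxidants or electrophiles that modify KEAP1 let NRF2 build up and bind antioxidant response elements with a small MAF partner. BACH1 competes for the same elements, and in liver the pathway is known for inducing glutathione synthesis and detoxifying enzymes. NRF2 activity is largely set at the protein level, which these arrays do not measure.

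Promoters of 7 of the 10 genes matched the RefSeq promoter table (build GRCm38.p6, 250 bases before to 50 after the start of transcription), and Gclc, Hmox1 and Gsr had no entry. The motifs searched on both strands were TGACNNNGC, the core of the antioxidant response element, and TGANTCA, the element bound by AP-1 and related factors. TGACNNNGC is held by 12.4% of 32851 promoters and by 6 of the 10 promoters of the 7 genes. Counted by gene, 5 of the 7 hold it in at least 1 promoter, and a gene with several promoters has more places to match. TGANTCA is held by 7.81% of promoters and by 1 of the 10, that of Srxn1. The promoters shown are those of Srxn1 and Nqo1, whose RNA was lower with AICAR in both cell types, and that of Gclm. The brighter Gclm probe set was not called lower with AICAR in the main fit, while the dimmer was in WT MEFs. Capitals mark a match of either motif on either strand.
Srxn1, chr2:152105274-152105573 (+): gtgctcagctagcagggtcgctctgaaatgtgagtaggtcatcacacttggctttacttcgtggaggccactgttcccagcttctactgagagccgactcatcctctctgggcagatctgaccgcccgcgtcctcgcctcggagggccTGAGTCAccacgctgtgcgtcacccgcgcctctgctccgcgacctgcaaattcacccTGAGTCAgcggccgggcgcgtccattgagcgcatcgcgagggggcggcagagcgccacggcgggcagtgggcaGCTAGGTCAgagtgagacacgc
Nqo1, chr8:107403156-107403455 (-): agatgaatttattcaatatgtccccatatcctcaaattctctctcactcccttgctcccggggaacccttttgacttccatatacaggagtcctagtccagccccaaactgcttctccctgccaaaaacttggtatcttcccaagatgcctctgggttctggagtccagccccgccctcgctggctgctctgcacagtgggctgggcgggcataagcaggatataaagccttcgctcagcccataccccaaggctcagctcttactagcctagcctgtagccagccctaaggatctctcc
Gclm, chr3:122245307-122245606 (+): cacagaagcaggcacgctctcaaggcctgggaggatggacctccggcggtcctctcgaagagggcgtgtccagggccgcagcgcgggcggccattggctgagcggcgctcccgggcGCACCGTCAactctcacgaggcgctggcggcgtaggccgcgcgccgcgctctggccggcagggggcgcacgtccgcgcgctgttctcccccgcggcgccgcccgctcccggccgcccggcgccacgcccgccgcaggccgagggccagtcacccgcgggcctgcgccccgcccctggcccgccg
The Srxn1 window holds 2 copies of TGANTCA and 1 of TGACNNNGC, the Gclm window 1 of TGACNNNGC and the Nqo1 window neither. A match in these letters is a description of the window and not a shown binding site.

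All 20 probe sets lay above the array median in hepatocytes and 19 in MEFs. The background shares given below cover all probe sets, dim ones included, and so are taken over a set of unlike level. Gclc 1424296_at averaged 13.46 over hepatocyte arrays (13.10 to 13.73) and 9.88 over MEF arrays (9.44 to 10.30), and Srxn1 1451680_at averaged 12.15 (11.76 to 12.55) and 8.81 (8.42 to 9.13). Hmox1 averaged 11.45 in hepatocytes (10.71 to 12.13) and 9.63 in MEFs (9.36 to 10.10). Nqo1 ran the other way, with 7.98 in hepatocytes (7.34 to 8.44) and 9.29 in MEFs (8.75 to 9.79), and so did Abcc4, with 7.46 (6.47 to 8.16) and 8.97 (8.77 to 9.18). The ranges of these probe sets did not overlap between the cell types, but those of some other members did. Txnrd1 1421529_a_at read 12.31 to 12.84 in hepatocytes and 12.08 to 12.38 in MEFs, and Keap1 1450746_at 9.68 to 10.35 and 9.30 to 9.81. The share of all probe sets without overlap is not given here. The cell types are set side by side without a test because the sources used here do not say whether they were normalized together.

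With AICAR the most regular change among the 10 genes was a fall of Gclc, Srxn1 and Nqo1 in both genotypes and both cell types. Of the 20 probe sets, 6 were lower at an adjusted p under 0.05 in all 4 AICAR comparisons, both of Gclc, 3 of the 4 of Srxn1 and that of Nqo1, and 0 were higher in all 4. Over all probe sets 1.59% were lower and 1.13% higher in all 4. Each comparison has its own vehicle arrays. In dKO MEFs 11 of the 20 probe sets were called, 1 higher and 10 lower, against a background of 37.8% of all probe sets called, 20.1% higher and 17.7% lower. In WT MEFs 16 were called, 5 higher and 11 lower (background 31.7%, 18% higher and 13.8% lower). Under quantile normalization within the cell type 13 were called, 1 higher and 12 lower, and the background under that setting is not given here. In dKO hepatocytes 8 were called, 1 higher and 7 lower (background 20.8%, 9.97% higher and 10.8% lower), and in WT hepatocytes 13, 1 higher and 12 lower (background 18.2%, 8.39% higher and 9.86% lower). These counts were 3 without dKO preparation 1 and 4 without dKO preparation 2 in dKO hepatocytes, and 8 without either WT preparation in WT hepatocytes. The median log2 change of the 20 was -0.16, -0.15, -0.05 and -0.21 in dKO MEFs, WT MEFs, dKO hepatocytes and WT hepatocytes, and that of all probe sets was -0.01, -0.01, 0.03 and 0.04.

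**Figure D1:**
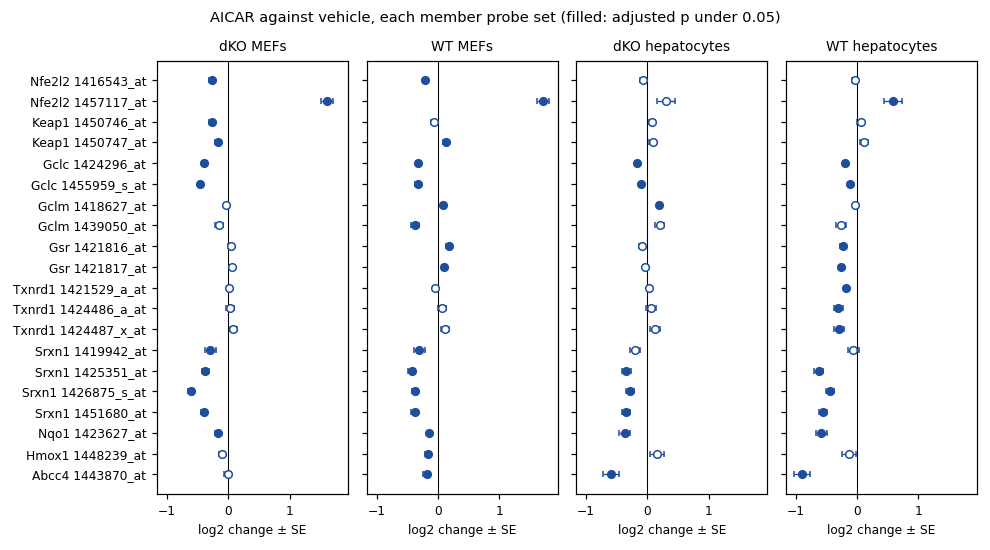
Log2 change of each of the 20 probe sets with AICAR against vehicle (x axis, points with SE bars from limma) in dKO MEFs, WT MEFs, dKO hepatocytes and WT hepatocytes. Filled points have an adjusted p under 0.05, and the filled points of Gclc, Nqo1 and 3 Srxn1 probe sets lie left of 0 in all 4 panels, while 1 Nfe2l2 probe set lies at 1.61 and 1.71 in MEFs.

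Gclc encodes the catalytic subunit of glutamate-cysteine ligase, the rate-limiting enzyme of glutathione synthesis. Its probe set 1424296_at read 9.75, 9.74, 9.69 and 9.70 in dKO MEFs with AICAR, against 10.09, 10.10, 10.12 and 10.13 with vehicle. In WT MEFs it read 9.44, 9.52, 9.498 and 9.47 with AICAR, against 9.73, 9.92, 9.78 and 9.76 with vehicle. All AICAR arrays of each genotype lay below all its vehicle arrays. The change was -0.39 ± 0.04 in dKO MEFs (limma, adjusted p = 2.1e-10) and -0.32 ± 0.04 in WT MEFs (adjusted p = 2.5e-08), a 1.31-fold and a 1.24-fold fall. The difference between these changes, dKO minus WT, was -0.07 with a 95% confidence interval of -0.18 to 0.03. In hepatocytes the same probe set averaged 13.45 and 13.56 in the 2 dKO preparations with AICAR, against 13.68 and 13.68 with vehicle. In WT preparations it averaged 13.34 and 13.27 with AICAR, against 13.51 and 13.51 with vehicle. The change was -0.17 ± 0.03 in dKO (adjusted p = 0.0036) and -0.20 ± 0.03 in WT (adjusted p = 0.0018). Without dKO preparation 1 it was -0.12 (adjusted p = 0.203), and without WT preparation 2 it was -0.17 (adjusted p = 0.0606). The second Gclc probe set, 1455959_s_at, gave -0.46 in dKO MEFs, -0.33 in WT MEFs, -0.11 in dKO hepatocytes and -0.12 in WT hepatocytes, all with an adjusted p under 0.05.

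Gclm, the modifier subunit of the same enzyme, gave readings that depended on the probe set and the normalization. Its brighter probe set, 1418627_at, averaged 11.25 ± 0.02 in dKO MEFs with AICAR and 11.29 ± 0.05 with vehicle (SD, n = 4 each), a change of -0.04 that was not called, and under quantile normalization it fell, by 0.10 (adjusted p = 0.0015). In WT MEFs it averaged 11.29 ± 0.02 with AICAR and 11.20 ± 0.05 with vehicle, a rise of 0.08 ± 0.03 (SE, adjusted p = 0.022) that was 0.04 under quantile normalization (adjusted p = 0.311). It also lost its call without WT AICAR replicate 2 (adjusted p = 0.0702), WT vehicle replicate 1 (0.0701) or WT vehicle replicate 4 (0.0929). The effect in dKO minus that in WT MEFs was -0.13 ± 0.04 (adjusted p = 0.041). It was not called without any 1 of the 4 dKO AICAR arrays, dKO vehicle replicate 1 or 3, WT AICAR replicate 2, 3 or 4, or WT vehicle replicate 1 or 4 (highest adjusted p = 0.110). In hepatocytes the dKO preparations read 12.36 and 12.51 with AICAR, against 12.17 and 12.33 with vehicle, a rise of 0.19 ± 0.03 (adjusted p = 0.0029). The rise had adjusted p = 0.102 without dKO preparation 1 and 0.0666 without dKO preparation 2. The WT preparations read 12.32 and 12.23 with AICAR, against 12.40 and 12.22 with vehicle, a change of -0.03 ± 0.03. The difference, dKO minus WT, was 0.22 ± 0.05 (adjusted p = 0.042). It was the only 1 of the 20 probe sets called for this difference in hepatocytes (background 2.52%, 0.564% higher and 1.96% lower), and it was no longer called under quantile normalization (adjusted p = 0.151) or without any 1 of the 4 preparations (adjusted p = 0.0604 to 0.362). The dimmer probe set, 1439050_at, disagreed in WT MEFs, where it changed by -0.37 ± 0.06 (adjusted p = 2.5e-05), and under quantile normalization it was called lower in dKO MEFs too (-0.21, adjusted p = 0.0057).

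Gsr, glutathione reductase, which returns oxidised glutathione to its reduced form, changed in WT cells of both types. In WT MEFs its probe sets 1421816_at and 1421817_at rose by 0.18 ± 0.05 and 0.10 ± 0.04 with AICAR (adjusted p = 0.0036 and 0.027). In WT hepatocytes they changed by -0.22 ± 0.05 and -0.26 ± 0.04 (adjusted p = 0.0061 and 0.0013). Under quantile normalization neither rise in MEFs was called, at 0.12 (adjusted p = 0.052) and 0.05 (adjusted p = 0.250). That of the second probe set also lost its call without WT AICAR replicate 2 or WT vehicle replicate 3 or 4. In hepatocytes it read 11.46 and 11.59 in the WT preparations with AICAR, against 11.69 and 11.87 with vehicle. Neither was called in dKO cells of either type, and the difference between the genotypes was not called (adjusted p = 0.247 and 0.713 in MEFs, 0.422 and 0.0794 in hepatocytes).

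Srxn1 encodes sulfiredoxin, which repairs hyperoxidised peroxiredoxins, and is a well known NRF2 and AP-1 target. Its brightest probe set, 1451680_at, read 8.46, 8.46, 8.52 and 8.42 in dKO MEFs with AICAR, against 8.85, 8.80, 8.92 and 8.90 with vehicle. In WT MEFs the readings were 8.58, 8.59, 8.61 and 8.76 with AICAR, against 8.93, 9.03, 9.09 and 8.99 with vehicle. Treated and vehicle arrays did not overlap in either genotype. The change was -0.40 ± 0.05 in dKO (adjusted p = 9.2e-08) and -0.38 ± 0.05 in WT (adjusted p = 3.6e-07), with a difference of -0.02 (95% confidence interval -0.16 to 0.13). In hepatocytes the dKO preparations read 11.84 and 11.83 with AICAR, against 12.05 and 12.30 with vehicle, and the WT preparations 11.89 and 11.80, against 12.51 and 12.30. The change was -0.34 ± 0.07 in dKO (adjusted p = 0.0034) and -0.56 ± 0.07 in WT hepatocytes (adjusted p = 0.00018), a 1.27-fold and a 1.47-fold fall. Probe sets 1425351_at and 1426875_s_at fell in all 4 comparisons, by 0.29 to 0.62 on the log2 scale. Without dKO preparation 2 the change of 1426875_s_at in dKO hepatocytes was -0.13 (adjusted p = 0.180). The fall of 1426875_s_at was larger in dKO MEFs, -0.61 ± 0.05, than in WT MEFs, -0.37 ± 0.05, with a difference of -0.24 ± 0.07 (adjusted p = 0.028). The fourth probe set, 1419942_at, fell in MEFs by 0.29 in dKO and 0.31 in WT and was not called in hepatocytes.

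Txnrd1, cytosolic thioredoxin reductase, keeps thioredoxin reduced and is also a classical NRF2 target. All 3 of its probe sets fell in WT hepatocytes with AICAR, by 0.18 ± 0.04 (1421529_a_at, adjusted p = 0.0061), 0.30 ± 0.08 (1424486_a_at, adjusted p = 0.020) and 0.29 ± 0.08 (1424487_x_at, adjusted p = 0.023). The brightest read 12.46 and 12.51 in the WT preparations with AICAR, against 12.66 and 12.66 with vehicle, and without WT preparation 1 its change was -0.15 (adjusted p = 0.0947). In dKO hepatocytes it read 12.76 and 12.71 with AICAR, against 12.67 and 12.73 with vehicle, a change of 0.03 ± 0.04. The difference between the genotypes was 0.21 ± 0.05, which missed the threshold (adjusted p = 0.064), and those of the other probe sets had adjusted p = 0.152 and 0.0894. No Txnrd1 probe set was called in MEFs of either genotype with AICAR, except that with array width as a covariate 1421529_a_at was called lower in WT (-0.10, adjusted p = 0.011).

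Nqo1, a quinone reductase whose RNA is widely used as a readout of NRF2, fell in all 4 AICAR comparisons. Its probe set read 9.55, 9.51, 9.61 and 9.45 in dKO MEFs with AICAR, against 9.69, 9.67, 9.74 and 9.71 with vehicle. In WT MEFs it read 8.78, 8.75, 8.76 and 8.79 with AICAR, against 8.93, 8.85, 8.93 and 8.92 with vehicle. The groups did not overlap within a genotype, and the changes were -0.17 ± 0.04 in dKO (adjusted p = 0.0013) and -0.14 ± 0.04 in WT (adjusted p = 0.011). In hepatocytes the dKO preparations read 7.69 and 7.76 with AICAR, against 8.25 and 7.94 with vehicle. The WT preparations read 7.53 and 7.82 with AICAR, against 8.23 and 8.28 with vehicle. The change was -0.37 ± 0.09 in dKO (adjusted p = 0.014) and -0.58 ± 0.09 in WT (adjusted p = 0.0011), and their difference was 0.21 (95% confidence interval -0.07 to 0.50). Without dKO preparation 1 the change in dKO was -0.18 (adjusted p = 0.449), and without WT preparation 1 that in WT was -0.46 (adjusted p = 0.0571).

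Hmox1, heme oxygenase 1, fell with AICAR in WT MEFs, where it read 9.36, 9.48, 9.51 and 9.52, against 9.62, 9.71, 9.60 and 9.59 with vehicle, a change of -0.16 ± 0.05 (adjusted p = 0.0069). In dKO MEFs the change of -0.10 was not called, although the arrays of the groups did not overlap. It was called under quantile normalization (-0.18, adjusted p = 0.00072), with array width as a covariate (-0.15, adjusted p = 0.0036) and without dKO AICAR replicate 3 (-0.13, adjusted p = 0.046). In hepatocytes its AICAR changes were 0.16 ± 0.11 in dKO and -0.13 ± 0.11 in WT, neither called. The WT preparations gave -0.0052 and -0.26. Without WT preparation 1 the change in WT was -0.26, and the difference, dKO minus WT, was 0.42. The change in dKO stayed at 0.16 without WT preparation 1 or 2, since no dKO array was left out. Only its SE moved, to 0.045 and 0.044.

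Abcc4 encodes MRP4, an exporter of organic anions and cyclic nucleotides on the basolateral side of hepatocytes, and gave the largest fall of the 10 genes in hepatocytes with AICAR. The dKO preparations read 7.12 and 7.0 with AICAR, against 8.01 and 7.30 with vehicle. The WT preparations read 6.67 and 7.30 with AICAR, against 7.75 and 8.004 with vehicle. The change was -0.59 ± 0.12 in dKO (adjusted p = 0.0055), a 1.51-fold fall, and -0.90 ± 0.12 in WT (adjusted p = 0.00051), a 1.86-fold fall. Their difference was 0.30 (95% confidence interval -0.08 to 0.69). In MEFs it changed by -0.01 ± 0.06 in dKO and -0.18 ± 0.06 in WT (adjusted p = 0.025), which lost its call without WT AICAR replicate 1 or WT vehicle replicate 2 or 3. Without dKO preparation 1 the change in dKO hepatocytes was -0.30 (adjusted p = 0.253).

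**Figure D2:**
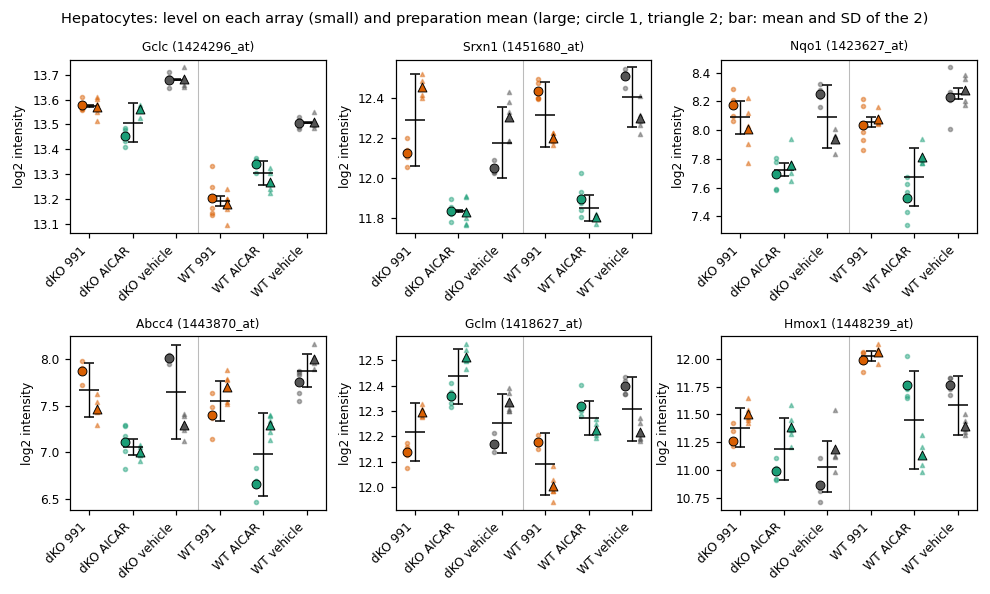
Log2 intensity in hepatocytes of 6 probe sets, with arrays as small points, preparation means as large points (circle 1, triangle 2) and bars for the mean and SD of the 2 preparations, by genotype and treatment. The AICAR preparations of Gclc, Srxn1, Nqo1 and Abcc4 lie below the vehicle preparation of the same number in both genotypes, and Gclm rises with AICAR in dKO preparations.

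Markers of several cell types moved with AICAR. In dKO hepatocytes 7 of 9 Kupffer cell markers, 4 of 7 endothelial and 5 of 8 hepatocyte markers were higher with AICAR and 0 were lower. Of all probe sets 9.97% were higher and 10.8% lower there. The summed Kupffer cell level was 3435 to 4681 with AICAR and 2864 to 3821 with vehicle in dKO, and 5207 to 7297 and 4624 to 7039 in WT. In WT 0 of 9 Kupffer cell, 3 of 7 endothelial and 4 of 8 hepatocyte markers were called, all higher (background 8.39% higher and 9.86% lower). In MEFs 5 of 8 fibroblast markers were lower and 2 higher with AICAR in dKO, and 5 lower and 0 higher in WT, with median changes of -0.16 and -0.22. The background was 20.1% higher and 17.7% lower in dKO MEFs, and 18% and 13.8% in WT MEFs. The summed level of the fibroblast markers was 18189 to 18958 with AICAR and 19942 to 20302 with vehicle in dKO, and 37227 to 38221 and 40861 to 41904 in WT. The part of these markers in the results above was not tested.

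The regulators themselves gave mixed readings. The bright Nfe2l2 probe set 1416543_at read 10.71, 10.70, 10.70 and 10.77 in dKO MEFs with AICAR, against 11.02, 11.01, 10.93 and 11.00 with vehicle, a change of -0.27 ± 0.04 (adjusted p = 5.8e-07). In WT MEFs it read 10.66, 10.48, 10.57 and 10.56 with AICAR, against 10.72, 10.78, 10.79 and 10.83 with vehicle, a change of -0.21 ± 0.04 (adjusted p = 3.7e-05). In hepatocytes its changes were -0.07 ± 0.05 in dKO and -0.03 ± 0.05 in WT, neither called. The dim probe set 1457117_at went the other way. It read 7.005, 7.08, 7.20 and 7.003 in dKO MEFs with AICAR, against 5.56, 5.20, 5.68 and 5.42 with vehicle. In WT MEFs it read 6.63, 7.01, 6.92 and 6.77 with AICAR, against 5.24, 5.08, 5.00 and 5.17 with vehicle. The rise was 1.61 ± 0.10 in dKO (adjusted p = 3.2e-14), 3.05-fold, and 1.71 ± 0.10 in WT (adjusted p = 1.6e-14), 3.28-fold. It also rose in WT hepatocytes, by 0.59 ± 0.15 (adjusted p = 0.018), whereas the dKO preparations gave 0.69 and -0.09 and no call. The mean of this probe set over MEF arrays, 5.94, lies below the array's median of 6.21, and the annotation used does not say which part of the transcript it reads, so the direction for Nfe2l2 RNA in MEFs depends on the probe set.

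Keap1, the adaptor that targets NRF2 for degradation, fell with AICAR in dKO MEFs on both probe sets. Probe set 1450746_at read 9.30, 9.36, 9.32 and 9.32 with AICAR, against 9.56, 9.61, 9.62 and 9.58 with vehicle in dKO, a change of -0.27 ± 0.04 (adjusted p = 1.4e-06). In WT MEFs it read 9.65, 9.75, 9.61 and 9.61 with AICAR, against 9.66, 9.75, 9.72 and 9.75 with vehicle, and the groups overlapped. Under quantile normalization it was called lower in WT as well (-0.14, adjusted p = 0.0021). The effect in dKO minus that in WT was -0.20 ± 0.06 for this probe set (adjusted p = 0.016) and -0.30 ± 0.07 for 1450747_at (adjusted p = 0.0055), which fell by 0.16 in dKO and rose by 0.14 in WT. The rise was 0.09 and not called under quantile normalization (adjusted p = 0.174), where both differences between the genotypes stayed called (adjusted p = 0.0097 and 0.0052). With 1 probe set each of Gclm and Srxn1 these are the 4 of 20 that were called for this difference in MEFs, all lower (background 9.37%, 3.7% higher and 5.67% lower), and the count was 2 without dKO vehicle replicate 1 or 3, WT vehicle replicate 1 or WT AICAR replicate 3. In hepatocytes Keap1 was not called with AICAR.

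**Figure D3:**
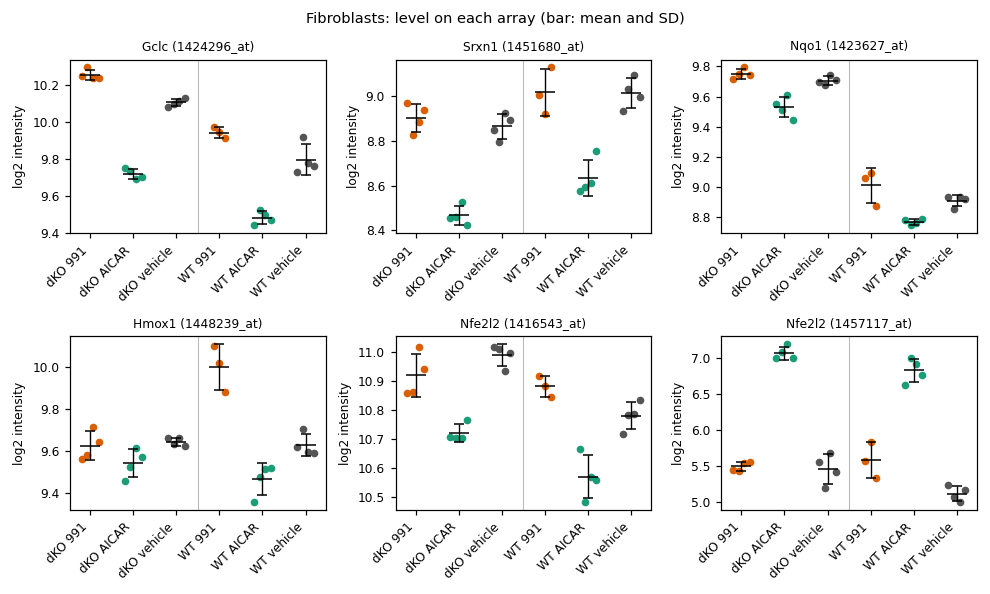
Log2 intensity on each MEF array (points) with the mean and SD of each group (bars) for 6 probe sets, by genotype and treatment. AICAR arrays of Gclc, Srxn1 and Nqo1 lie below the vehicle arrays of their genotype, Hmox1 with 991 lies above vehicle in WT and overlaps it in dKO, and the 2 Nfe2l2 probe sets move in opposite directions with AICAR.

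Fewer of these probe sets were called with 991 than with AICAR. In WT MEFs 4 of the 20 probe sets were called, 3 higher and 1 lower (background 13%, 9.23% higher and 3.8% lower), and in dKO MEFs 1, which was higher (background 1.78%, 0.917% higher and 0.866% lower) and was lost without dKO 991 replicate 2 or without dKO vehicle replicate 1, 2 or 3. In WT hepatocytes 5 were called, all lower (background 4.09%, 2.51% higher and 1.58% lower), and in dKO hepatocytes 0 (background 0.00666%), with 4 at an unadjusted p under 0.05. In simulated data for 991 in dKO hepatocytes 6 of 67 changes of 0.3 on the log2 scale were recovered, so changes of this size are mostly missed there. The difference between the effects in dKO and WT was called for 2 of 20 in MEFs (background 2.9%, 0.531% higher and 2.37% lower), or for 1 without dKO vehicle replicate 1, WT vehicle replicate 1 or WT 991 replicate 2 or 3. In hepatocytes it was called for 0 by limma (background 0.189%, 0.0311% higher and 0.158% lower), with 10 at an unadjusted p under 0.05. No probe set was called in the same direction in all 4 comparisons with 991, and 0% of all probe sets were.

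Hmox1 had the smallest adjusted p of the 20 probe sets with 991 in WT MEFs, where it rose, and it was not called in dKO MEFs. Its product breaks heme down to biliverdin, iron and carbon monoxide. It read 10.10, 10.02 and 9.88 in WT MEFs with 991, against 9.62, 9.71, 9.60 and 9.59 with vehicle, and the groups did not overlap. In dKO MEFs it read 9.56, 9.58, 9.71 and 9.64 with 991, against 9.66, 9.63, 9.66 and 9.62 with vehicle. The rise in WT was 0.37 ± 0.05 (adjusted p = 8.4e-06), 1.29-fold, and the change in dKO was -0.02 (95% confidence interval -0.11 to 0.08). The effect in dKO minus that in WT was -0.39 ± 0.07 (adjusted p = 0.00099). The interquartile range of the arrays was 3.73 to 3.89 in WT MEFs with 991 and 3.58 to 3.74 with vehicle, and with this width as a covariate the rise was 0.27 (adjusted p = 0.0017) and the difference -0.28 (adjusted p = 0.021).

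In hepatocytes Hmox1 read 11.99 and 12.06 in the WT preparations with 991, against 11.77 and 11.40 with vehicle. The change of 0.44 ± 0.11 missed the threshold (adjusted p = 0.0577) and reached it when p-values were adjusted over 1 probe set per gene (adjusted p = 0.0407), or without WT preparation 1 (0.66, adjusted p = 0.0045). The dKO preparations read 11.26 and 11.50 with 991, against 10.87 and 11.19 with vehicle, a change of 0.35 ± 0.11 that was not called (unadjusted 95% confidence interval 0.10 to 0.60). The difference between the genotypes was -0.09 (95% confidence interval -0.45 to 0.26). Hmox1 is also expressed by macrophages, and the summed Kupffer cell level was 5196 to 7494 with 991 and 4624 to 7039 with vehicle in WT, and 2721 to 4017 and 2864 to 3821 in dKO. Of its 9 markers, Cd68 was higher and Cd163 lower with 991 in WT, and their part in the Hmox1 values was not tested.

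The 5 probe sets called with 991 in WT hepatocytes were both of Gclc, 1 of Gclm and both of Keap1. Gclc 1424296_at read 13.21 and 13.18 in the WT preparations with 991, against 13.51 and 13.51 with vehicle, a change of -0.31 ± 0.03 (adjusted p = 0.00071). In dKO it read 13.58 and 13.57 with 991, against 13.68 and 13.68 with vehicle, a change of -0.11 ± 0.03 that was not called. The second Gclc probe set changed by -0.26 ± 0.03 in WT (adjusted p = 0.0020). Gclm 1418627_at read 12.18 and 12.01 in WT with 991, against 12.40 and 12.22 with vehicle, a change of -0.22 ± 0.03 (adjusted p = 0.0066). Keap1 changed by -0.26 ± 0.05 and -0.26 ± 0.06 on its probe sets 1450746_at and 1450747_at (adjusted p = 0.016 and 0.035). For Gclc 1424296_at the effect in dKO minus that in WT was 0.21 (adjusted p = 0.190, unadjusted 95% confidence interval 0.10 to 0.31). Without WT preparation 2 the number of the 20 called with 991 in WT hepatocytes was 0, and Gclc 1424296_at then changed by -0.30 (adjusted p = 0.0504). Keap1 1450746_at was not called without WT preparation 1 either (adjusted p = 0.0794).

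In MEFs Gclc 1424296_at took the opposite direction with 991. Probe set 1424296_at read 10.25, 10.30, 10.24 and 10.24 in dKO with 991, against 10.09, 10.10, 10.12 and 10.13 with vehicle, a rise of 0.15 ± 0.04 (adjusted p = 0.024). In WT it read 9.97, 9.94 and 9.91 with 991, against 9.73, 9.92, 9.78 and 9.76 with vehicle, where the ranges overlapped, a rise of 0.15 ± 0.04 (adjusted p = 0.013). The second Gclc probe set, 1455959_s_at, which is the brighter in MEFs, changed by -0.01 in dKO and 0.11 in WT. It was not called in either genotype, so a rise in dKO was read on 1 probe set only. The other WT calls were a rise of 0.46 ± 0.11 for Nfe2l2 1457117_at (adjusted p = 0.0050) and a fall of 0.20 ± 0.06 for Srxn1 1425351_at (adjusted p = 0.030). For this Srxn1 probe set the effect in dKO minus that in WT was 0.34 ± 0.08 (adjusted p = 0.024), and the other Srxn1 probe sets gave no such call. With array width as a covariate Hmox1 was the 1 probe set still called in WT MEFs, and the count was 2 without WT vehicle replicate 1, WT 991 replicate 2 or WT 991 replicate 3. Nqo1, Gsr, Txnrd1 and Abcc4 were not called with 991 in any of the 4 comparisons. In WT MEFs Nqo1 was called without 991 replicate 4 (0.17, adjusted p = 0.014) and Txnrd1 without vehicle replicate 2 (0.12, adjusted p = 0.017). In WT hepatocytes Txnrd1 was called over 1 probe set per gene (-0.13, adjusted p = 0.0498).

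**Figure D4:**
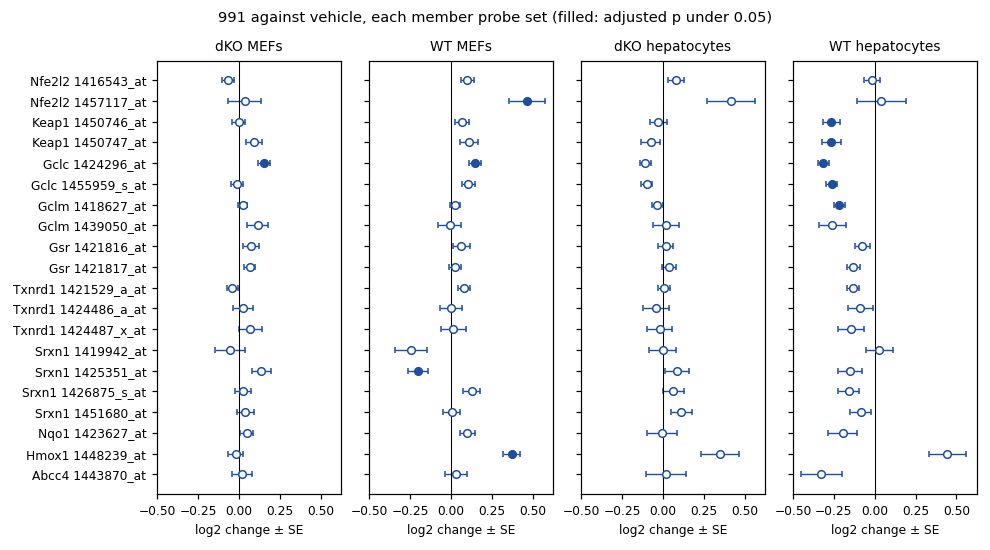
Log2 change of each of the 20 probe sets with 991 against vehicle (x axis, points with SE bars from limma) in dKO MEFs, WT MEFs, dKO hepatocytes and WT hepatocytes. Filled points have an adjusted p under 0.05. Hmox1 is filled at 0.37 in WT MEFs, and the 5 filled points in WT hepatocytes lie left of 0.

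With vehicle alone the 2 MEF genotypes differed at 13 of the 20 probe sets, 6 higher and 7 lower in dKO (background 40.9%, 22.3% higher and 18.6% lower). Nqo1 stood apart, at 9.69, 9.67, 9.74 and 9.71 in dKO and 8.93, 8.85, 8.93 and 8.92 in WT, a difference of 0.79 ± 0.04 (adjusted p = 3.5e-16), 1.73-fold. Gclc was higher by 0.31 and 0.34 on its probe sets and Nfe2l2 by 0.21 and 0.34. Keap1 differed by -0.13 and -0.15, 3 Srxn1 probe sets by -0.15 to -0.34 and Gsr 1421817_at by -0.32. Gclm was higher by 0.09 on 1418627_at and lower by 0.28 on 1439050_at. The first of these lost its call without dKO vehicle replicate 3 (adjusted p = 0.059) or WT vehicle replicate 4 (adjusted p = 0.057), and that of Srxn1 1451680_at without dKO vehicle replicate 2 (adjusted p = 0.072) or WT vehicle replicate 3 (adjusted p = 0.077). Abcc4, at -0.15, was not called, but was under quantile normalization (-0.18, adjusted p = 0.0051) and with array width as a covariate (-0.21, adjusted p = 0.00094). The fibroblast markers given above differ between these cells too, and the deletion and other differences between the cultures cannot be told apart. In hepatocytes 0 of the 20 differed by genotype with vehicle (background 0%), in limma on 4 preparation means, with 4 at an unadjusted p under 0.05. Hmox1 had the largest difference there, 10.87 and 11.19 in dKO against 11.77 and 11.40 in WT, or -0.55 ± 0.16 (adjusted p = 0.889), and with the preparation numbers crossed as a block, a setting chosen after seeing the data, -0.55 ± 0.05 (adjusted p = 3.9e-05). The summed Kupffer cell level given above was lower in dKO too, and its part in the Hmox1 values was not tested.

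Further genes of the pathway were read by 1 probe set each, and their counts are to be set against the share of all probe sets called in the same comparison. That share covers all 45037 probe sets, dim ones included, whereas each list gene is read on its brightest probe set. The sets are therefore unlike, and how far this bears on the counts was not tested. Of 12 partners and regulators of NRF2, 4 were higher and 2 lower with AICAR in dKO MEFs and 8 higher and 0 lower in WT MEFs, against 20.1% higher and 17.7% lower of all probe sets in dKO and 18% and 13.8% in WT. Bach1, a repressor at antioxidant response elements, rose by 0.50 ± 0.04 in dKO and by 0.86 ± 0.04 in WT. The small MAF genes Mafg and Maff, whose products pair with NRF2 or BACH1, rose by 0.42 ± 0.04 and 0.25 ± 0.05 in WT. For Bach1, Maff and Mafg the effect in dKO minus that in WT was -0.36, -0.32 and -0.25 (adjusted p = 7.1e-05, 0.0013 and 0.0010). It was lower for 6 of 12 (background 3.7% higher and 5.67% lower). With 991, 6 of 12 were higher and 0 lower in WT MEFs (background 9.23% higher and 3.8% lower). Among them were Maff, higher by 0.42, Mafg by 0.34 and Sqstm1, an autophagy receptor that binds KEAP1, by 0.32. In dKO MEFs 0 were higher and 1 was lower with 991 (background 0.917% higher and 0.866% lower). The effect of 991 in dKO minus that in WT was lower for 6 of 12 (background 0.531% higher and 2.37% lower).

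In hepatocytes with AICAR 6 of these 12 were higher and 3 lower in dKO, and 4 higher and 2 lower in WT, against 20.8% and 18.2% of all probe sets called in either direction. Bach2, a relative of BACH1, rose by 1.08 ± 0.11 in dKO and 1.01 ± 0.11 in WT, and Mafk by 0.64 ± 0.09 and 0.47 ± 0.09. With 991 in WT hepatocytes 3 were higher and 0 lower, Bach2 by 0.85, Maff by 0.43 and Nfe2l1 by 0.38 (background 2.51% higher and 1.58% lower). In dKO hepatocytes 0 were called by limma with 991 (background 0.00666%).

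Among glutathione genes other than the members, 1 of 7 was higher and 2 lower with AICAR in dKO hepatocytes, and 0 higher and 2 lower in WT. Over all probe sets 20.8% were called in dKO and 18.2% in WT hepatocytes, in either direction. Slc7a11, the cystine importer, fell by 0.75 ± 0.07 in dKO and 1.03 ± 0.07 in WT hepatocytes. In MEFs Chac1, which degrades glutathione and is a target of ATF4, changed with AICAR by -2.88 ± 0.08 in dKO and -2.56 ± 0.08 in WT. In WT hepatocytes with 991 Chac1 rose by 1.08 ± 0.19 (adjusted p = 0.011). Of 9 quinone, aldehyde and xenobiotic enzymes, 1 was higher and 4 lower with AICAR in dKO hepatocytes and 1 higher and 2 lower in WT, and 3 of 9 in WT is not far from the 18.2% called over all probe sets. Cbr3, a carbonyl reductase, fell by 0.91 ± 0.12 in dKO and 0.98 ± 0.12 in WT. Osgin1, an oxidative stress response gene, fell by 0.77 in dKO and 0.41 in WT MEFs and by 0.52 in WT hepatocytes with AICAR. With 991 Osgin1 rose by 0.33 in WT hepatocytes. Akr1b8 was the 1 of these enzymes higher with AICAR in hepatocytes, by 0.42 in dKO and 0.28 in WT. Cbr1 rose by 0.28 with AICAR in WT MEFs.

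Over all probe sets 10.8% were lower with AICAR in dKO and 9.86% in WT hepatocytes. Of 7 ABC efflux pumps other than Abcc4, 0 were higher and 2 lower in dKO and 0 higher and 4 lower in WT hepatocytes with AICAR, among them Abcc1 by 0.32 and 0.40. Of 5 enzymes that supply NADPH, which Txnrd1, Gsr and Nqo1 use, 0 were higher and 2 lower in dKO and 0 higher and 4 lower in WT hepatocytes with AICAR, where Idh1 fell by 0.24 and Pgd by 0.18. With vehicle in MEFs, 9 of 15 glutathione transferases were higher and 1 lower in dKO than in WT, and Mgst1 was higher by 2.5 and Gsta4 by 1.90. Over all probe sets 22.3% were higher and 18.6% lower in this comparison. Of the quinone, aldehyde and xenobiotic enzymes 6 of 9 were higher and 2 lower in dKO, with Aox1 at 2.03 and Cbr3 at 1.93. The probe sets of Mgst1 and Aox1 are dim, with means of 5.18 and 5.11 over MEF arrays, below the median of 6.21. Of 8 heme and iron genes 6 were higher and 1 lower, and Blvrb, a biliverdin reductase that acts after heme oxygenase, was higher by 1.75.

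Over the 8 differences from vehicle (2 cell types, 2 genotypes, 2 compounds), the genes most like Nfe2l2 1416543_at among 16715 candidates were Bcl2l2, Galnt4 and Snapc4, each with Pearson r of 0.98. Those most like Hmox1 were Ivns1abp, Ttc39b and Orc2 (r of 0.94, 0.93 and 0.93). Those most like Srxn1 1451680_at, among 16712, were Rcan1, 2310033P09Rik and Slc30a7 (r of 0.99, 0.97 and 0.97). The 2 differences of a genotype share vehicle arrays, and with so many candidates for 8 points these values are only a description.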

How the data were processed

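The authors deposited a log2 intensity for each probe set, made with RMA and Partek per the submitters' processing notes; the versions of these, and whether all arrays were normalized together, are not given in the sources used here. Per the series' design text the authors left out 1 MEF array (WT with 991, replicate 1) and 1 hepatocyte array (dKO with vehicle, preparation 1, replicate 4) as outliers, and the 82 others were used. The highest correlation between 2 arrays was 0.999, so none was a copy of another. Precision depends on how many arrays and preparations there are.

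After removing 64 controls from 45101 probe sets, 45037 were tested. The platform annotation gives 1 symbol for 34945 of them, several for 932 and no symbol for 9160, and 34741 matched the mouse gene table by Entrez identifier. All probe sets of the 10 genes are described. Further lists (136 genes, 122 matched) are given by counts, with at most 3 called genes named per list and comparison by size of change, each read on its brightest probe set in that cell type; some named genes are given in a second comparison or genotype for contrast. Members and lists were chosen with earlier results of these data known.

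Linear models (limma 3.58.1, R 4.3.3; moderated with an intensity trend) were fitted to all probe sets of a cell type at once, with Benjamini-Hochberg adjustment over 45037 and two-sided calls at an adjusted p under 0.05. MEFs had 6 group means, and hepatocytes 12 preparation means with preparation within genotype as a fixed block. The genotype comparison in hepatocytes used 4 vehicle means. The block rests on the labels, and deviations of the same preparation correlated at 0.358 to 0.783 across treatments. Intervals are unadjusted 95% confidence intervals. The fits were tested on simulated data. Of changes of 0.3 on the log2 scale, 22 of 67 were recovered for 991 in dKO MEFs and 6 of 67 in dKO hepatocytes. With changes of 0.5 the counts were 59 of 67 and 35 of 67. The alternatives were another normalization, a filter on dim probe sets, no variance trend, array width, blocks, 1 value per gene and left-out arrays or preparations. Python 3.11.15 with pandas 2.3.3, numpy 2.4.6 and matplotlib 3.10.9 made the other tables and the figures.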

Additional observations from a re-analysis of the deposited data

Results flagged for a closer look

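In MEFs 5 of 100 combinations of probe set and group of 4 arrays held an array far from the others, against 1 in 20 by chance. Abcc4 read 8.78 on replicate 4 of dKO with vehicle, and 8.95 to 8.98 on the others. Gclc 1424296_at read 10.30 on replicate 2 of dKO with 991, and 10.24 to 10.25 on the others. Nfe2l2 1416543_at read 10.77 on replicate 4 of dKO with AICAR, and 10.70 to 10.71 on the others. Nqo1 read 8.85 on replicate 2 of WT with vehicle, and 8.92 to 8.93 on the others. Srxn1 1425351_at read 6.82 on replicate 2 of dKO with AICAR, and 7.01 on the others.

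The effect of a compound differed between the genotypes, by the interaction test in limma, for 7 pairs of probe set and comparison. Of the 20 probe sets 2 were called with 991 and 4 with AICAR in MEFs, and 0 and 1 in hepatocytes. Over all probe sets the shares called were 2.9%, 9.37%, 0.189% and 2.52%, in the same order. With 991 in MEFs the effect in dKO minus that in WT was -0.39 ± 0.07 for Hmox1 (SE, adjusted p = 0.00099) and 0.34 ± 0.08 for Srxn1 1425351_at (adjusted p = 0.024). With AICAR in MEFs it was -0.30 ± 0.07 for Keap1 1450747_at (adjusted p = 0.0055), -0.20 ± 0.06 for Keap1 1450746_at (adjusted p = 0.016), -0.24 ± 0.07 for Srxn1 1426875_s_at (adjusted p = 0.028) and -0.13 ± 0.04 for Gclm 1418627_at (adjusted p = 0.041). With AICAR in hepatocytes it was 0.22 ± 0.05 for Gclm 1418627_at (adjusted p = 0.042), of the opposite sign to this probe set in MEFs. Averaged over both Gclm probe sets the difference was 0.046 in MEFs and 0.34 in hepatocytes, of the same sign and neither called. Both calls of 1418627_at depended on which arrays or preparations were kept, as given above.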

How the results depend on the processing

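Counts below are of the 20 member probe sets called, and the cause of a changed count was not tested. The share of all probe sets called under each setting is not given here. A count therefore does not set the members apart from other genes. For 991 in dKO MEFs the count was 1, and 0 with no variance trend. For 991 in WT MEFs it was 4, and 1 with array width as a covariate, and for the 991 difference between genotypes in MEFs it was 2, and 1 with that covariate. With every hepatocyte array as a sample the counts were 5 for 991 in dKO, 15 for 991 in WT, 13 for the 991 difference between genotypes, 14 for AICAR in dKO and 14 for the AICAR difference, where technical replicates count as samples. With no replicate block in hepatocytes they were 1 for 991 in WT, 1 for AICAR in dKO, 8 for AICAR in WT and 0 for the AICAR difference between genotypes, which was also 0 under quantile normalization and with no variance trend. In MEFs same-numbered arrays did not deviate together (median correlation 0.00514 over 55 pairs), and with the number as a replicate block the counts were 1, 4 and 2 for 991 in dKO, in WT and their difference, 11, 16 and 4 for AICAR, and 13 for genotype, equal to those without it. With preparation number as a replicate block across genotypes the hepatocyte genotype count was 0, and with the numbers crossed, a setting added after seeing that same-numbered preparations correlated at -0.734 to -0.585, it was 6, 2 higher and 4 lower, with Hmox1, Gclc and Srxn1 among the genes called.

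Leaving out 1 MEF array gave 0 to 1 calls for 991 in dKO, 2 to 6 for 991 in WT, 1 to 3 for their difference, 10 to 13 for AICAR in dKO, 13 to 16 for AICAR in WT, 2 to 4 for their difference and 11 to 15 for genotype. Leaving out 1 preparation gave 0 to 5 calls for 991 in WT hepatocytes, 3 to 11 for AICAR in dKO, 8 to 12 for AICAR in WT and 0 to 2 for their difference, and 0 throughout for the other 3 comparisons; a lone preparation is then assumed to vary like the others. Averaging all probe sets of a gene reversed Nfe2l2 with AICAR, to 0.67 in dKO MEFs, 0.75 in WT MEFs and 0.28 in WT hepatocytes. It also reversed Gclm, to -0.14 with AICAR in WT MEFs, 0.046 for the AICAR difference between genotypes in MEFs and -0.10 for genotype in MEFs. For single genes, 39 pairs of gene and comparison were called, and of 2880 alternative values 815 kept sign and call, 65 lost and 67 gained a call, 6 reversed and 1927 were not called either way, 95 of them with the other sign.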

Other observations

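Other redox genes were each read on 1 probe set. With AICAR 37.8% of all probe sets were called in dKO MEFs, 31.7% in WT MEFs, 20.8% in dKO hepatocytes and 18.2% in WT hepatocytes, and several of the counts below are near or under these shares. Of 8 genes of the thioredoxin and peroxiredoxin system other than the members, 4 were higher and 2 lower in dKO MEFs, 3 higher and 2 lower in WT MEFs, and 2 higher and 2 lower in dKO and in WT hepatocytes. Sesn1, a sestrin, took opposite directions in the cell types, with -0.30 ± 0.05 in dKO and -0.36 ± 0.05 in WT MEFs (SE, limma adjusted p = 2.2e-06 and 1.9e-07) and 0.77 ± 0.17 in dKO and 1.04 ± 0.17 in WT hepatocytes (adjusted p = 0.0075 and 0.0015), at doses that differ. Sesn2, another sestrin, rose by 0.58 ± 0.07 in dKO MEFs (adjusted p = 1.3e-08), and its effect in dKO minus that in WT was 0.59 ± 0.09 (adjusted p = 4.8e-05).

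Of 8 heme and iron genes, 1 was higher and 4 lower with AICAR in dKO MEFs, 3 higher and 2 lower in WT MEFs, 1 higher and 3 lower in dKO hepatocytes and 1 higher and 2 lower in WT hepatocytes. Alas1, which starts heme synthesis, changed by -0.36 ± 0.06 in dKO and -0.19 ± 0.06 in WT MEFs (adjusted p = 7.3e-06 and 0.011), and by 0.42 ± 0.10 in dKO and 0.59 ± 0.10 in WT hepatocytes (adjusted p = 0.014 and 0.0024). With 991 in WT MEFs Blvrb rose by 0.45 ± 0.05 (adjusted p = 7.1e-07), and its effect in dKO minus that in WT was -0.33 ± 0.07 (adjusted p = 0.0078), the same signs as for Hmox1. Of 4 genes of superoxide and peroxide removal, 1 was higher and 0 lower with AICAR in dKO MEFs, 0 were called by limma in WT MEFs, where Sod2 had the smallest adjusted p of the 4 (0.0501), and in hepatocytes 1 was higher and 0 lower in dKO and 1 higher and 1 lower in WT. Of 15 glutathione transferases 1 was higher and 3 lower in dKO hepatocytes with AICAR, and 0 higher and 4 lower in WT, with Gsta2 at -0.33 in dKO and -0.42 in WT.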
